A study of Mus musculus with 12 samples.

Results

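The 10 genes described here encode the apolipoproteins Apoa1, Apoa2, Apoa4, Apoa5, Apob, Apoc2, Apoc3 and Apoe and the VLDL assembly factors Mttp and Tm6sf2. The list names genes by symbol. Every gene probe whose RefSeq accession belongs to one of these symbols was taken, which gave 13 probes for 10 genes, of 13901 genes tested in all. Each of the 10 passed the filter on low signals, with every probe clear of background on the 12 arrays.

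Liver RNA came from male C57BL/6NJcl mice, one array per sample, 2 arrays in each of 6 groups. Controls ate CE-2, a standard chow. The other mice ate CDAHFD, a choline-deficient, L-amino acid-defined diet used to induce steatohepatitis, with 0.1% methionine and fat at 60 kcal%. Livers were taken after 1, 2 and 6 weeks of either diet, at 7, 8 and 12 weeks of age. The diets differ in several components at once, and the chow is not a matched purified diet, so no single component can be told apart as the source of a difference. Whether the 2 replicates of a group are separate mice is not stated in the labels, so the spread behind each p-value is that between arrays and may be technical.

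Apolipoproteins are the protein parts of plasma lipoproteins, and the liver is the main source of very low density lipoprotein (VLDL), the particle that carries triglyceride out of hepatocytes. A VLDL particle forms in the endoplasmic reticulum around 1 molecule of apolipoprotein B, onto which the microsomal triglyceride transfer protein (Mttp) loads lipid, and Tm6sf2 promotes the addition of further lipid. Smaller apolipoproteins of the A, C and E classes exchange between particles, where they activate or restrain lipases and serve as ligands of receptors. The coat of the particle needs phosphatidylcholine, for which choline is a precursor, and choline deficiency is a classical means of limiting VLDL export.

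Levels below are log2 signals relative to the 75th percentile of the same array. A diet difference is CDAHFD minus control on that log2 scale, from which the median difference over all genes at that time (0.13, 0.06 and 0.04 at 1, 2 and 6 weeks) has been subtracted, with the standard error (SE) of a limma fit over all 12 arrays. Adjusted p-values are Benjamini-Hochberg values over the 13901 genes, with a threshold of 0.05, and each group has n = 2. A gene's level is not comparable with that of another gene, because probes differ in response. In whole liver, fewer cells of a type and less RNA per cell cannot be told apart.

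Before the results, 3 features of the arrays bear on them. On control replicate 1 at 1 week, blocks holding 1078 spots in one corner were marked as dim, because many of their spots read over 8-fold below all other arrays, as 327 spots of that array did. The only Tm6sf2 probe lies there. No other probe of the 10 genes does. The diet difference also moved with brightness: with genes split by mean level into 10 bins, the brightest bin, which holds Apoa1, Apoa2, Apob, Apoc2, Apoc3 and Apoe, had median differences of -0.51, -0.41 and -0.31 at 1, 2 and 6 weeks, and the dimmest bin 0.37, 0.50 and 0.63. Arrays of weeks 1 and 2 shared one slide and those of week 6 another, so each diet comparison lies within a slide.

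With CDAHFD, Apoa4 rose about 20- to 31-fold at all 3 times, Apoa5 rose by less, Mttp fell, and most of the abundant apolipoprotein genes were lower early. At 1 week 7 of the 10 genes were called: Apoa4 and Apoa5 rose, and Apoa2, Apob, Apoc3, Apoe and Mttp fell. The 2 of 10 that rose compare with 25.8% of all genes tested, and the 5 that fell with 15.1%. Set against the controls of 2 and 6 weeks instead of its own, the 1-week count was 4, Apoa4, Apoc2, Apoe and Mttp. Over all 13901 genes that comparison called 4894, and the one with its own controls 5682. At 2 weeks 8 were called, with Apoc2 added to those that rose, so 3 rose and 5 fell, against 23% and 14.7% of all genes. At 6 weeks 5 were called: Apoa4, Apoa5 and Apoc2 rose and Apob and Mttp fell, against 24.5% higher and 16% lower over all genes. The median difference of the 10 genes was -0.64, -0.62 and -0.32 at the 3 times, where the median over all genes is 0 by construction. The brightest bin, which holds most of the 10, had medians of -0.51, -0.41 and -0.31. The part of brightness in the median of the 10 genes was not tested. Apoa1 was called at no time. With the dim spots left out, Tm6sf2 fell as well at 1 week, against 1 control array, and at 2 weeks, as given below.

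Single arrays decide part of these counts. Over all genes too, fewer were called at a time when an array of that time was left out. Apoa4 was called at each time whichever array was left out, as were Apoa2, Apoa5, Apoc3, Apoe and Mttp at 1 week, Apoc2 at 2 weeks and Mttp at 6 weeks. At 2 weeks 3 genes were called without control replicate 1, when Apoa2, Apob, Apoc3, Apoe and Mttp had limma adjusted p of 0.064 to 0.11. Without CDAHFD replicate 1 of that week 5 were called, and Apoa2, Apoa5 and Apoc3 lost their call (adjusted p = 0.059 to 0.087). Without CDAHFD replicate 2 there were 2, Apoa4 and Apoc2, and the other 6 had adjusted p of 0.067 to 0.10. Apoa5 was also lost without control replicate 2 of that week (adjusted p = 0.093). At 6 weeks 3 were called without either control array of that week or either CDAHFD array of 2 weeks, which enter through the shared spread. Apob at 6 weeks was lost without any one of the 4 arrays of that week or either CDAHFD array of 2 weeks (adjusted p = 0.054 to 0.14). Apoa5 was lost without control replicate 1 or CDAHFD replicate 1 of 6 weeks, or a CDAHFD array of 1 or 2 weeks (adjusted p = 0.052 to 0.22), and Apoc2 without control replicate 2 of 6 weeks (adjusted p = 0.11).

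**Figure D1:**
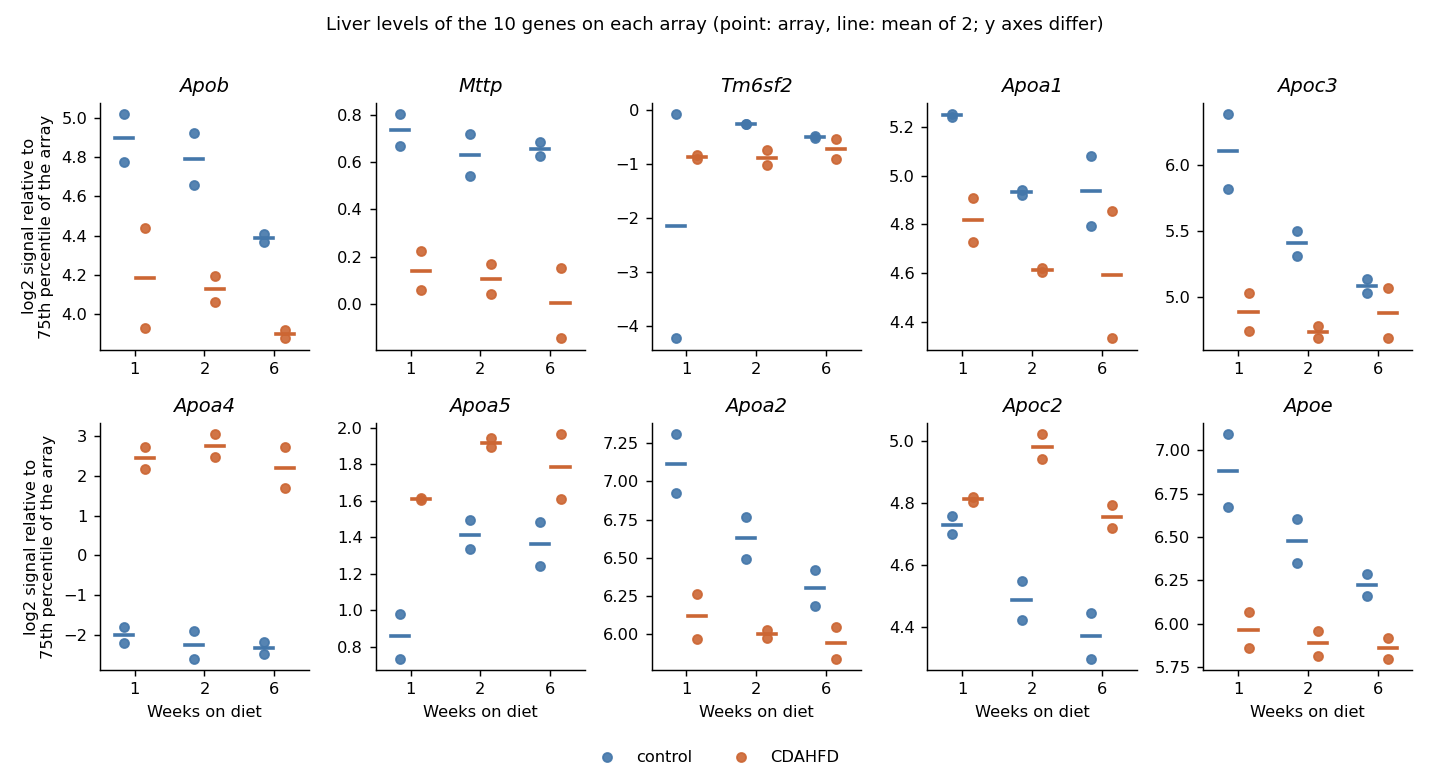
Level of each gene on each array, as log2 signal relative to the array's 75th percentile (y axis, different for each gene), against weeks on diet (x axis). Points are arrays, lines the mean of 2, blue the control diet and orange CDAHFD. Apoa4 lies between -2.58 and -1.79 on all 6 control arrays and between 1.69 and 3.03 on all 6 CDAHFD arrays, and the low Tm6sf2 point at -4.23 is the spot in the dim corner.

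Apob encodes the structural protein of VLDL, and its level was lower with CDAHFD at each time on the probe with the higher signal. At 1 week it read 5.02 and 4.78 on the control arrays and 3.93 and 4.44 on the CDAHFD arrays. At 2 weeks the controls read 4.92 and 4.66 and the CDAHFD arrays 4.19 and 4.06. At 6 weeks the values were 4.37 and 4.41 against 3.87 and 3.92. At each time both CDAHFD arrays lay below both controls. Apob fell by 0.84 (SE 0.17, limma adjusted p = 0.0069), 0.72 (SE 0.17, adjusted p = 0.010) and 0.53 (SE 0.17, adjusted p = 0.038) at 1, 2 and 6 weeks. Without control replicate 1 at 1 week, the array with the dim corner, the 1-week difference was -0.72 and its adjusted p 0.053, and without CDAHFD replicate 1 at 1 week it was -0.56, with an adjusted p of 0.071. Set against the controls of 2 and 6 weeks together, it was -0.47 (adjusted p = 0.052). After quantile normalization Apob was called at no time (-0.21, -0.25 and -0.27; adjusted p = 0.37, 0.14 and 0.074).

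The other Apob probe did not show this. It read 3.56 and 3.58 on the controls and 3.70 and 4.04 on the CDAHFD arrays at 1 week, 3.54 and 3.35 against 3.51 and 3.19 at 2 weeks, and 3.62 and 3.50 against 3.91 and 3.14 at 6 weeks. The groups overlapped at 2 and 6 weeks, and at 1 week the CDAHFD arrays were the higher ones. In a fit over 27043 probes its differences were 0.26, -0.09 and -0.03, with adjusted p of 0.31, 0.80 and 0.92. Within arrays, the log2 ratio of this probe to the brighter one was higher with CDAHFD by 0.68 on average over the 3 times (exact 2-sided permutation test of diet within weeks, p = 0.0185, Benjamini-Hochberg p = 0.031 over 15 such ratios, which were chosen after the data were seen). With the mean of both probes Apob was called at no time, with differences of -0.33, -0.43 and -0.30. Both probes carry the same RefSeq accession, and where each lies in the transcript was not analysed here.

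Mttp encodes the lipid transfer protein that loads Apob, and it fell at all 3 times by a nearly constant amount. Its level was 0.80 and 0.67 on the controls and 0.06 and 0.22 on the CDAHFD arrays at 1 week, 0.72 and 0.54 against 0.17 and 0.04 at 2 weeks, and 0.63 and 0.68 against 0.15 and -0.15 at 6 weeks. All 6 control arrays lay above all 6 CDAHFD arrays. The difference was -0.72 (SE 0.13, limma adjusted p = 0.0042), -0.58 (SE 0.13, adjusted p = 0.0082) and -0.69 (SE 0.13, adjusted p = 0.0022), a reduction by 1.65-, 1.50- and 1.62-fold. At 6 weeks Mttp was called in each of the 24 alternative analyses.

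Tm6sf2 encodes a membrane protein of the endoplasmic reticulum whose loss lowers the lipid content of secreted VLDL. Its probe read -4.23 and -0.08 on the controls and -0.91 and -0.83 on the CDAHFD arrays at 1 week, the first of these being the spot in the dim corner. At 2 weeks it read -0.27 and -0.26 on the controls against -0.75 and -1.02, and at 6 weeks -0.53 and -0.48 against -0.54 and -0.91. As fitted, with the dim spot in, no difference was called (1.16, -0.67 and -0.26, SE 1.18, adjusted p = 0.42, 0.72 and 0.90). With the dim spots left out, which leaves 1 control array at 1 week, Tm6sf2 fell by 0.92 (SE 0.18, limma adjusted p = 0.0056) at 1 week and by 0.67 (SE 0.14, adjusted p = 0.0070) at 2 weeks, and at 6 weeks the difference was -0.26 (adjusted p = 0.23). The single dim spot thus decides both the sign at 1 week and the SE at all times.

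Among the A class, Apoa4 stands in a cluster of 4 neighbouring genes on chromosome 9, in the order Apoa1, Apoc3, Apoa4 and Apoa5, with 0 other annotated genes between them. Apoa4 protein is carried on chylomicrons, VLDL and HDL, and its gene is active in small intestine and, in mice, also in liver. On the controls Apoa4 read -2.19 and -1.79 at 1 week, -2.58 and -1.90 at 2 weeks and -2.46 and -2.17 at 6 weeks. On the CDAHFD arrays it read 2.72 and 2.16, then 2.47 and 3.03, then 2.71 and 1.69. The lowest CDAHFD value lay 3.47 above the highest control value. Apoa4 rose by 4.30, 4.93 and 4.48 (SE 0.39; limma adjusted p = 8.4e-05, 3.1e-05 and 4.2e-05), which is 19.7-, 30.6- and 22.3-fold. It was called in all 25, 24 and 24 alternative analyses at the 3 times, with differences between 3.93 and 5.26.

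Markers of small intestinal epithelium, the other site of Apoa4 transcription, were read beside it. Of 6 markers 3 were measured, while the defining genes Cdh17, Sis and Alpi did not pass the filter in any group. Fabp2, an intestinal fatty acid binding protein, rose by 1.08, 1.08 and 0.92, and Vil1 was not well above background on any control array and was not called. Lgals4, a galectin, rose by 2.59 at 1 week, and its differences of 1.08 and 1.05 at 2 and 6 weeks were not called (adjusted p = 0.16 and 0.17); it is named after its values were seen. The summed level of the 3 ranged from 3.78 to 4.10 on the controls and from 9.57 to 9.89 on the CDAHFD arrays at 1 week, and most of it is the signal of Fabp2, the brightest of them. Their part in the Apoa4 difference was not tested.

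Apoa5, an activator of triglyceride hydrolysis by lipoprotein lipase that is made almost only in liver, also rose at the 3 times. It read 0.73 and 0.98 on the controls and 1.61 and 1.61 on the CDAHFD arrays at 1 week, 1.49 and 1.34 against 1.94 and 1.90 at 2 weeks, and 1.24 and 1.48 against 1.96 and 1.61 at 6 weeks. The CDAHFD arrays were above the controls at each time, though the controls of 2 and 6 weeks were higher than those of 1 week. The differences were 0.63 (SE 0.14, limma adjusted p = 0.0021), 0.45 (SE 0.14, adjusted p = 0.018) and 0.39 (SE 0.14, adjusted p = 0.035). The 6-week call held in 13 of 24 alternatives. Set against the later controls, those of 2 and 6 weeks together, the 1-week difference was 0.16 (adjusted p = 0.19).

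Apoc3, which restrains lipoprotein lipase and the uptake of remnants, fell at 1 and 2 weeks on its brighter probe, which read 6.38 and 5.82 on the controls and 4.74 and 5.03 on the CDAHFD arrays at 1 week, 5.50 and 5.31 against 4.78 and 4.69 at 2 weeks, and 5.13 and 5.02 against 5.07 and 4.68 at 6 weeks. The controls came down while the CDAHFD arrays stayed between 4.68 and 5.07, and at 6 weeks the groups overlapped. Apoc3 fell by 1.34 (SE 0.19, limma adjusted p = 8.1e-04) at 1 week and by 0.73 (SE 0.19, adjusted p = 0.020) at 2 weeks, and at 6 weeks the difference was -0.24 (adjusted p = 0.44). A second, much dimmer probe was lower at all 3 times, by -0.71, -0.51 and -0.49 (adjusted p = 0.0073, 0.028 and 0.033 over all probes), so at 6 weeks the probes fell on different sides of the threshold. The brighter probe differed at 1 week by -0.42 (adjusted p = 0.13) when set against the later controls.

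Apoa1, the main protein of HDL, was lower with CDAHFD but was not called. It read 5.24 and 5.25 on the controls and 4.73 and 4.91 on the CDAHFD arrays at 1 week, 4.94 and 4.92 against 4.61 and 4.62 at 2 weeks, and 4.79 and 5.08 against 4.86 and 4.33 at 6 weeks. The groups did not overlap at 1 and 2 weeks and overlapped at 6 weeks. The differences were -0.55, -0.37 and -0.38 (SE 0.16; limma adjusted p = 0.060, 0.16 and 0.12). Each Apoa1 value averages up to 10 spots, whose log2 SD within an array was 0.041 to 0.092, while the SD between the 2 arrays of a group was 0.0066 to 0.37. Without CDAHFD replicate 1 at 6 weeks, the 6-week difference was -0.68 and was called (adjusted p = 0.0073).

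**Figure D2:**
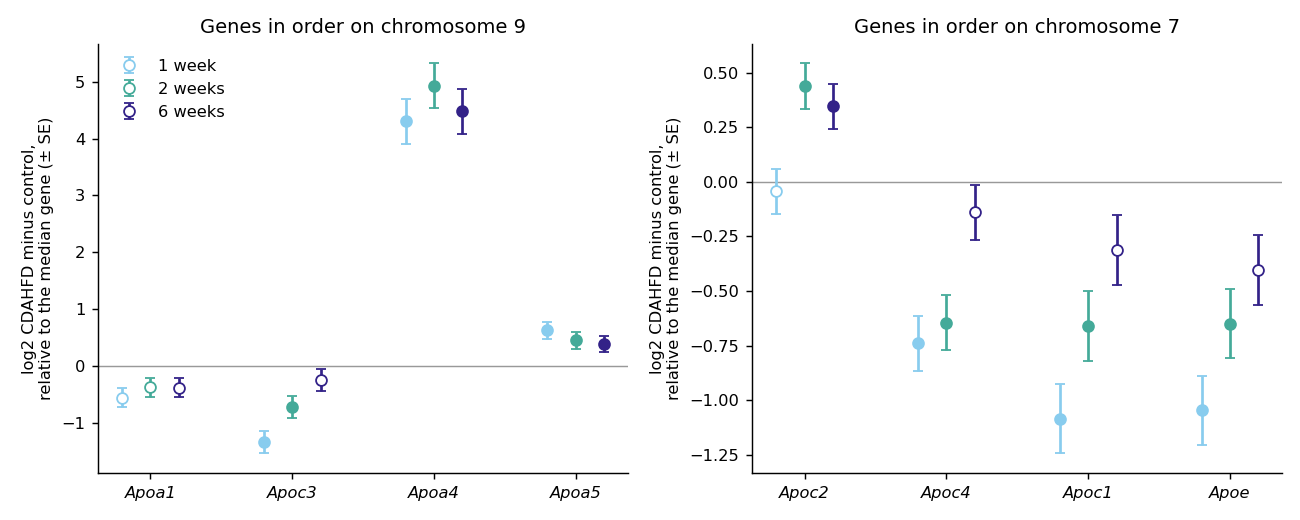
Diet differences (y axis, log2 CDAHFD minus control relative to the median gene, ± SE) of neighbouring genes in their order along chromosomes 9 and 7 (x axis), with 1, 2 and 6 weeks in light to dark colours and filled points for an adjusted p below 0.05. On chromosome 9 the difference turns from -0.24 to -1.34 in Apoc3 to 4.30 to 4.93 in the adjacent Apoa4, and on chromosome 7 Apoc2 lies above the other 3 genes at each time.

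Ratios within an array do not depend on how arrays are scaled to each other by a constant, but a difference that moves with brightness does not cancel in them. Averaged over the 3 times, the within-array log2 ratio of Apoa4 to Apoc3, to Apoa1 and to Apoa5 was higher with CDAHFD by 5.34, 5.01 and 4.08, and the ratio of Apoa5 to Apoc3 and to Apoa1 by 1.26 and 0.92. For each of these 5 ratios the 2 groups did not overlap at any of the 3 times. Each reached the smallest p that the 216 arrangements of diet within weeks allow (exact 2-sided permutation test, p = 0.00926, Benjamini-Hochberg p = 0.0174 over 15 ratios). The 15 ratios were chosen after the data were seen, and those that hold Apoa4 mostly restate its own difference, so these p-values are not separate evidence. For Apoa1 over Apoc3 the change was 0.33 (p = 0.093, adjusted p = 0.12, same exact test). The ends of the cluster therefore moved unequally, with the last 2 genes up relative to the first 2.

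The promoters of the genes that rose, Apoa4, Apoa5 and Apoc2, and of Mttp, which fell, are printed to show the proximal sequence of genes that moved in opposite directions. They are the 250 bases before the annotated start, 5′ to 3′ on the gene's strand, from RefSeq on GRCm38.p6, at chr9:46240594-46240843 (plus strand, Apoa4), chr9:46268358-46268607 (plus, Apoa5), chr7:19677942-19678191 (minus, Apoc2) and chr3:138143419-138143668 (minus, Mttp). Capitals mark matches to the motifs named after them.
Apoa4: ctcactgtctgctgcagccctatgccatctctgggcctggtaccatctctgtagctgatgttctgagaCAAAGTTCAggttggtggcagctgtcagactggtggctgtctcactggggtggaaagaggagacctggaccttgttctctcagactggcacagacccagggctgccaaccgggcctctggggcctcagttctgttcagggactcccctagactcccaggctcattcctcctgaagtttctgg
Apoa5: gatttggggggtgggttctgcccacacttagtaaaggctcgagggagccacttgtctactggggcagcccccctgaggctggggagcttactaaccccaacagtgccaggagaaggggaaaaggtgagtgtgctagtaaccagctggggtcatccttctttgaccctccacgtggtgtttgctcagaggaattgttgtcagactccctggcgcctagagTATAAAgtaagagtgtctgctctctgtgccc
Apoc2: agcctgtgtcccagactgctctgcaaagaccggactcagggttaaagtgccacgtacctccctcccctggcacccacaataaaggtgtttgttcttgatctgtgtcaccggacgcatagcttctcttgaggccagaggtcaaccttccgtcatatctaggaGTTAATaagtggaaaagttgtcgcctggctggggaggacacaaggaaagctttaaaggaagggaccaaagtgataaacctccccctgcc
Mttp: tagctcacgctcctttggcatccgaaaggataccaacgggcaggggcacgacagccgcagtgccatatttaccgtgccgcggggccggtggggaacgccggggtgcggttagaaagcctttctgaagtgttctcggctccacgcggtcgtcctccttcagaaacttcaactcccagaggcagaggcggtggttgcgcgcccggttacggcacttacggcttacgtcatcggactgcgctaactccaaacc

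Promoter sequence was matched for 8 of the 10 genes, with 12 annotated starts, and not for Apoc3 and Tm6sf2. The motifs searched on both strands were CAAAGTCCA (bound by HNF4), TTGCNNAA (bound by C/EBP factors), GTTAAT (part of the HNF1 site), TATAAA, and CAAAGTNCA, which contains CAAAGTCCA and was added after the sequences were read. Apoa4 holds CAAAGTTCA from -182 to -174, a form of CAAAGTNCA, which 1.19% of the 32851 promoters in the table hold. Apoa5 holds TATAAA from -31 to -26, as do 12.4% of promoters anywhere in the window, and Apoc2 holds GTTAAT from -89 to -84, as do 6.43%. Mttp and Apoa1 hold 0 matches. Of the genes that fell, Apob holds TATAAA and TTGCNNAA in the same window, the latter in 9.56% of promoters. Apoa2 holds these motifs before different annotated starts, and Apoe likewise TATAAA and GTTAAT. The percentages are per promoter, while Apoa2 and Apoe have several. CAAAGTCCA, present in 0.384% of promoters, is in none of the 12 windows. A match is a description of letters and not a bound site.

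Apoa2 encodes the second protein of HDL, and its 2 probes gave like differences. The brighter probe read 7.31 and 6.92 on the controls and 5.97 and 6.27 on the CDAHFD arrays at 1 week, 6.77 and 6.49 against 6.03 and 5.98 at 2 weeks, and 6.42 and 6.19 against 6.05 and 5.84 at 6 weeks. As with Apoc3, the CDAHFD values stayed in a narrow band while the controls were highest at 1 week. Apoa2 fell by 1.12 (SE 0.17, limma adjusted p = 0.0012) and by 0.68 (SE 0.17, adjusted p = 0.015) at 1 and 2 weeks, and at 6 weeks the difference was -0.40 (adjusted p = 0.12). The other probe differed by -1.05, -0.75 and -0.32. Set against the later controls, the difference at 1 week was -0.41 (adjusted p = 0.093). After quantile normalization the differences at 1 and 2 weeks were -0.14 and 0.05 and neither was called (adjusted p = 0.42 and 0.64).

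**Figure D3:**
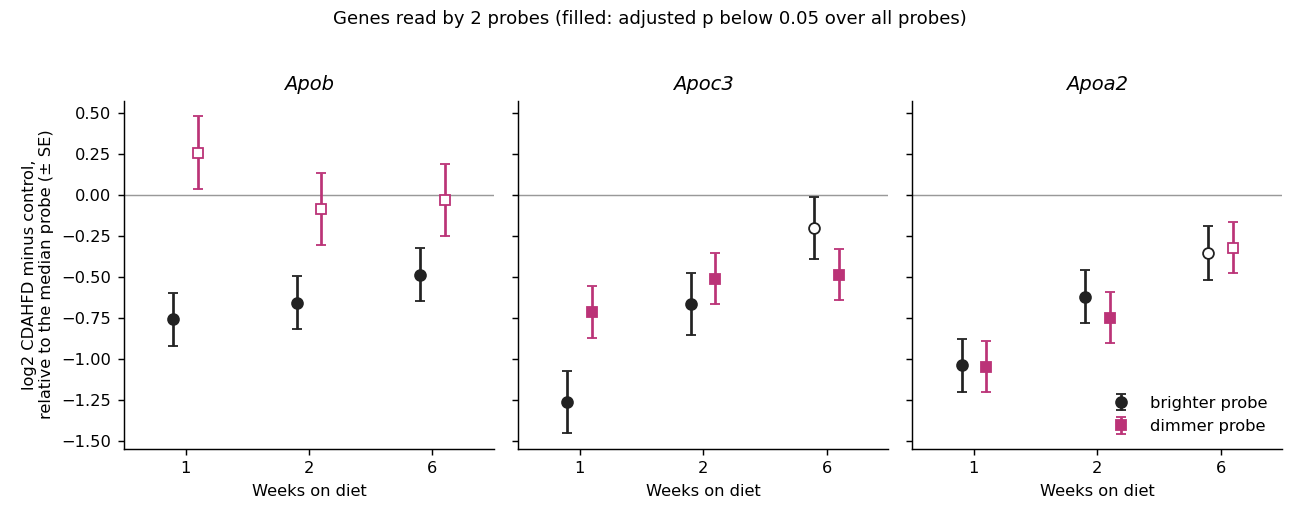
Diet differences (y axis, log2 CDAHFD minus control relative to the median probe, ± SE) of the 3 genes read by 2 probes, against weeks on diet (x axis), with black circles for the brighter and magenta squares for the dimmer probe and filled symbols for an adjusted p below 0.05 over all probes. The Apoa2 probes lie close together, while the dimmer Apob probe lies between -0.09 and 0.26 and the brighter between -0.76 and -0.49.

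Apoe, a ligand by which remnants are taken up into cells, is made by hepatocytes and by macrophages. It read 7.09 and 6.67 on the controls and 5.86 and 6.07 on the CDAHFD arrays at 1 week, 6.61 and 6.35 against 5.96 and 5.81 at 2 weeks, and 6.28 and 6.16 against 5.92 and 5.80 at 6 weeks. Both CDAHFD arrays were below both controls at each time. Apoe fell by 1.05 (SE 0.16, limma adjusted p = 0.0013) and 0.65 (SE 0.16, adjusted p = 0.014) at 1 and 2 weeks, and at 6 weeks the difference was -0.40 (adjusted p = 0.091). It was still called at 1 week when set against the later controls, but only just (-0.45, limma adjusted p = 0.04997). After quantile normalization the differences at 1 and 2 weeks were -0.08 and 0.04 and neither was called (adjusted p = 0.85 and 0.62). Macrophage markers moved the other way in the same arrays: 6, 8 and 8 of 8 rose at the 3 times, with median differences of 1.89, 3.06 and 3.29, and Cd68 rose by 2.03, 3.04 and 3.23. Their summed level was 5.10 to 7.38 on the controls and 14.3 to 16.3 on the CDAHFD arrays at 1 week, and 5.87 to 6.77 against 27.9 to 33.0 at 6 weeks. Their part in the Apoe level was not tested.

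Apoc2, the cofactor that lipoprotein lipase needs, lies at the other end of the Apoe cluster on chromosome 7, in the order Apoc2, Apoc4, Apoc1 and Apoe, with 1 further annotated gene, Gm44805, between Apoc2 and Apoc4. It read 4.70 and 4.76 on the controls and 4.82 and 4.80 on the CDAHFD arrays at 1 week, 4.55 and 4.42 against 5.02 and 4.94 at 2 weeks, and 4.44 and 4.30 against 4.79 and 4.72 at 6 weeks. It rose by 0.44 (SE 0.10, limma adjusted p = 0.0039) and 0.35 (SE 0.10, adjusted p = 0.014) at 2 and 6 weeks, and at 1 week the difference was -0.04 (adjusted p = 0.55). Before the median over all genes was subtracted, the 1-week means were 4.73 on the controls and 4.81 with CDAHFD. Set against the later controls, Apoc2 was higher at 1 week too, by 0.32 (adjusted p = 0.0078). Its neighbours Apoc1 and Apoc4 fell at 1 and 2 weeks, by 1.08 and 0.66 for Apoc1 and by 0.74 and 0.65 for Apoc4. Apoc4 was no gene of the naming rule and was taken as a neighbour, after its values were seen. Within arrays, the ratio of Apoc2 to Apoe, to Apoc1 and to Apoc4 was higher with CDAHFD by 0.95, 0.93 and 0.75 on average. The groups did not overlap at any of the 3 times (exact permutation test within weeks, p = 0.00926, Benjamini-Hochberg p = 0.0174). These ratios too were chosen after the data were seen. The ratio of Apoc1 to Apoe differed by 0.01 (exact p = 0.71, adjusted p = 0.71).

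The normalization decides several of these calls. With quantile normalization, which forces the same distribution on every array, Apoa4 and Apoa5 rose and Mttp fell at all 3 times, as with 75th-percentile scaling, and Apoc2 rose at all 3 times, by 0.63, 0.98 and 0.70. Apoc3 was called at 1 week only, with a difference of -0.52. Apoa2, Apob and Apoe were called at no time, as given above. Apoa1 turned to 0.14 and 0.18 at 1 and 2 weeks. So the lower levels of the brightest members hold relative to the array's 75th percentile and, for Apoc3 at 1 week, also after quantile normalization, while the direction of Apoa4, Apoa5 and Mttp held under every scaling tried. Median centring left Mttp short of the threshold at 1 and 2 weeks (adjusted p = 0.086 and 0.10) and Apoa5 at 6 weeks (adjusted p = 0.11). A percentile taken over all probes, detected or not, ended the calls of Apoa5 and Apoc2 at 2 and 6 weeks and added Apoa1 at each time and Apoa2 and Apoe at 6 weeks. Relative to the median gene, the differences of these genes stayed nearly the same under both scalings. Their p-values test the difference before that median is subtracted, and so moved with it. At 2 weeks the median over all genes was 0.06 in the main analysis, 0.18 with median centring and -0.16 with that percentile.

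**Figure D4:**
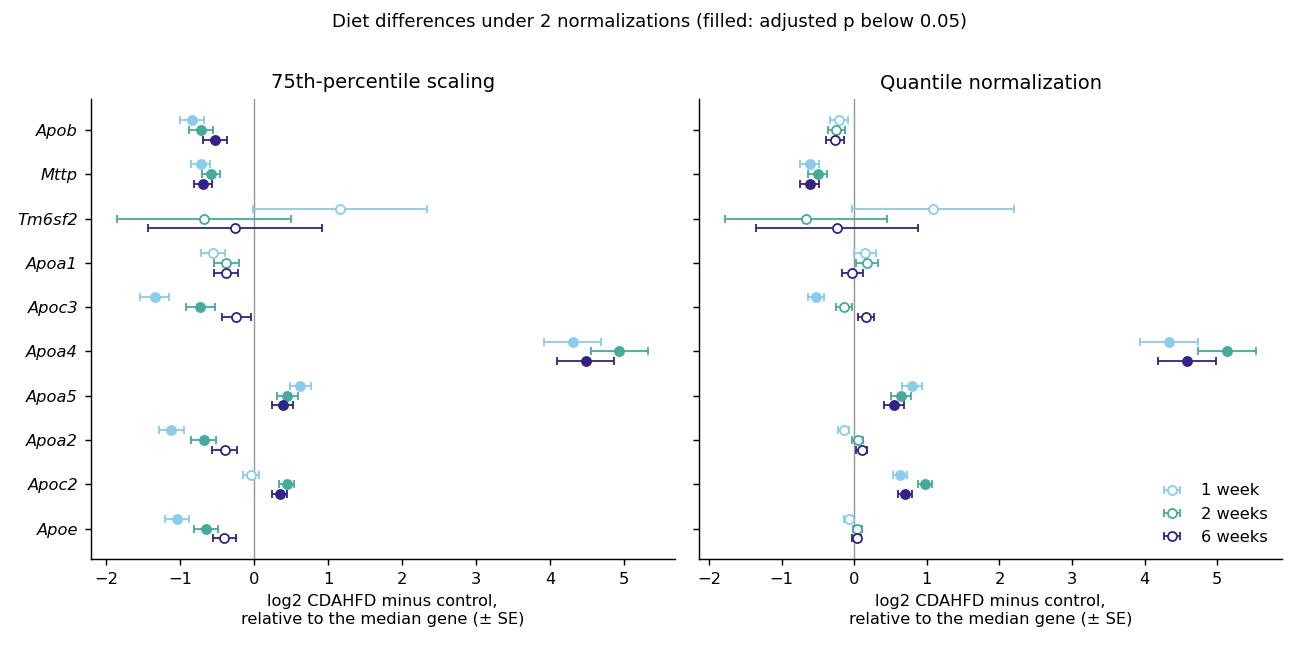
Diet differences of the 10 genes (x axis, log2 CDAHFD minus control relative to the median gene, ± SE) with 75th-percentile scaling (left) and quantile normalization (right), with 1, 2 and 6 weeks in light to dark colours and filled points for an adjusted p below 0.05. Apoa4, Apoa5 and Mttp keep their side of 0 in both panels, and Apoa2, Apoe and Apoa1 move to near 0 on the right.

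Whether a diet effect itself differed between weeks was tested directly. Of the 10 genes 0 were called in the limma F test of the diet-by-week terms, against 2.33% of all genes, and 2 had an unadjusted p below the threshold. The smallest adjusted p was 0.13, for Apoc3, whose difference at 6 weeks was higher than at 1 week by 1.04 (SE 0.27, adjusted p = 0.059 for that term). Without control replicate 2 at 1 week, Apoc3 and Tm6sf2 were called, but the lone 1-week control value of Tm6sf2 was then its dim spot. With all arrays kept and the dim spots left out, neither was called. Within the control diet, Apoa2, Apoa5 and Apoc3 were called across weeks (limma adjusted p = 0.031, 0.045 and 0.020), 3 of 10 against 11.5% of all genes. From 1 to 6 weeks the controls fell by 0.83 for Apoa2 and by 1.04 for Apoc3, and rose by 0.48 for Apoa5. Within CDAHFD 0 of 10 were called, against 3.08% of all genes, 0 had an unadjusted p below the threshold, and the smallest adjusted p was 0.44. Week 6 was on its own slide, and age, slide and time on diet cannot be told apart in the change from 1 to 6 weeks. With weeks 1 and 2 alone, on a single slide, Apoa5 was the only one of the 10 called within the controls. The 3 calls within the controls were all lost without control replicate 1 at 1 week or without either control array of 6 weeks, and without either CDAHFD array of 2 weeks Apoc3 alone was called.

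Across the 12 arrays, levels of the bright genes that fell ran close together, as a description that includes the diet difference they share. The Pearson correlation was 0.993 for Apoa2 with Apoe and 0.978 for Apoa2 with Apoc3. Apoa4 ran against Mttp, with a correlation of -0.929, and the correlation of Apoc2 with Apoe was -0.375. Over all genes, the level most like that of Apoa4 was that of Procr, the endothelial protein C receptor (0.991), followed by the basement membrane collagen Col4a1 (0.991). Apoa5 was most like Dpp8 and Nyap1 (0.975 and 0.966), Mttp most like Urod, an enzyme of haem synthesis, over 11 arrays, and Slco2b1, an organic anion transporter (0.988 and 0.987). Apoc3 was most like Ndufa13 and Uqcr10, subunits of the respiratory chain (0.987 and 0.985), and Apoe and Apoa2 both most like Chchd10, a mitochondrial protein (0.994 in both). For Apob these were Xntrpc and Zfp672, for Apoc2 Gnai2 and Clcn5, for Tm6sf2, over 11 arrays, Zfp574 and Atp5c1, and for Apoa1 Krt16 and 2810006K23Rik, at 0.928 to 0.979. Arrays of one diet share that diet and, in part, a slide.

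Of the 12 other apolipoprotein genes on the list, all were measured, and 1, 4 and 4 rose and 7, 6 and 1 fell at 1, 2 and 6 weeks, with median differences of -0.65, -0.51 and -0.32. The shares over all genes given above, 25.8%, 23% and 24.5% higher and 15.1%, 14.7% and 16% lower at the 3 times, stand beside these counts and those of the other lists. After quantile normalization 2, 4 and 4 were called higher and 0, 1 and 1 lower, with medians of -0.12, 0.02 and 0.04. By that scaling 2971, 2954 and 3005 of all 13901 genes were higher and 2036, 2179 and 2596 lower. The small exchangeable Apoc1 fell by 1.08 and 0.66 at 1 and 2 weeks, Apoh, which binds phospholipid, by 0.84 and 0.55, and Apom, a carrier of sphingosine 1-phosphate, by 1.00 at 1 week. After quantile normalization none of these 3 was called, and Apoh at 2 weeks turned to 0.03. For Apoc1 the control means came down, from 5.81 to 5.30 and 4.99 at the 3 times, beside 4.85, 4.70 and 4.72 with CDAHFD. Apon fell by 0.63, 0.73 and 0.52 at the 3 times, and at 1 week was not called after quantile normalization (-0.25, limma adjusted p = 0.17). Its probe has a spot in the dim corner, and with the dim spots left out the differences were -0.62, -0.73 and -0.51. Of the acute-phase apolipoproteins of HDL, Saa3 rose by 3.25, 3.55 and 3.13 (SE 0.26), and Saa1 by 2.38 and 1.86 (SE 0.36) at 2 and 6 weeks. Apod was well above background on 0 control arrays and is given without a fold.

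Of the 25 genes of VLDL assembly and secretion listed beside Mttp and Tm6sf2, 24 were measured, and 3, 2 and 2 rose and 4, 6 and 7 fell, with medians of -0.30, -0.23 and -0.18, beside the same shares over all genes. The lower counts were 0, 2 and 2 with median centring and 12, 11 and 12 with the percentile over all probes. Over all 13901 genes, lower counts were 2101, 2047 and 2225 in the main analysis and 931, 1051 and 1304 with median centring. With that percentile they were 4069, 3777 and 4236. P4hb, which encodes the partner subunit of Mttp, was not called at any time (-0.17, 0.22 and 0.05). Cideb, a lipid droplet protein needed to lipidate VLDL, fell by 0.59, 0.47 and 0.39, and Pla2g12b, which acts in the same step, fell at 2 weeks by 0.42; neither was called after quantile normalization. Aadac, a lipase of the endoplasmic reticulum, fell by 0.67, 1.04 and 1.07 (SE 0.10; -0.01 and not called at 1 week after quantile normalization). Apobec1, the enzyme that edits Apob RNA to the short form, rose by 1.25, 1.33 and 1.87 (SE 0.21, limma adjusted p = 7.0e-04, 6.0e-04 and 6.1e-05). The array does not separate edited from unedited Apob RNA. Sec23a, a coat protein of vesicles leaving the endoplasmic reticulum, rose by 0.40, 0.46 and 0.42 and lost its call in 3 or 4 of the 4 other scalings.

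**Figure D5:**
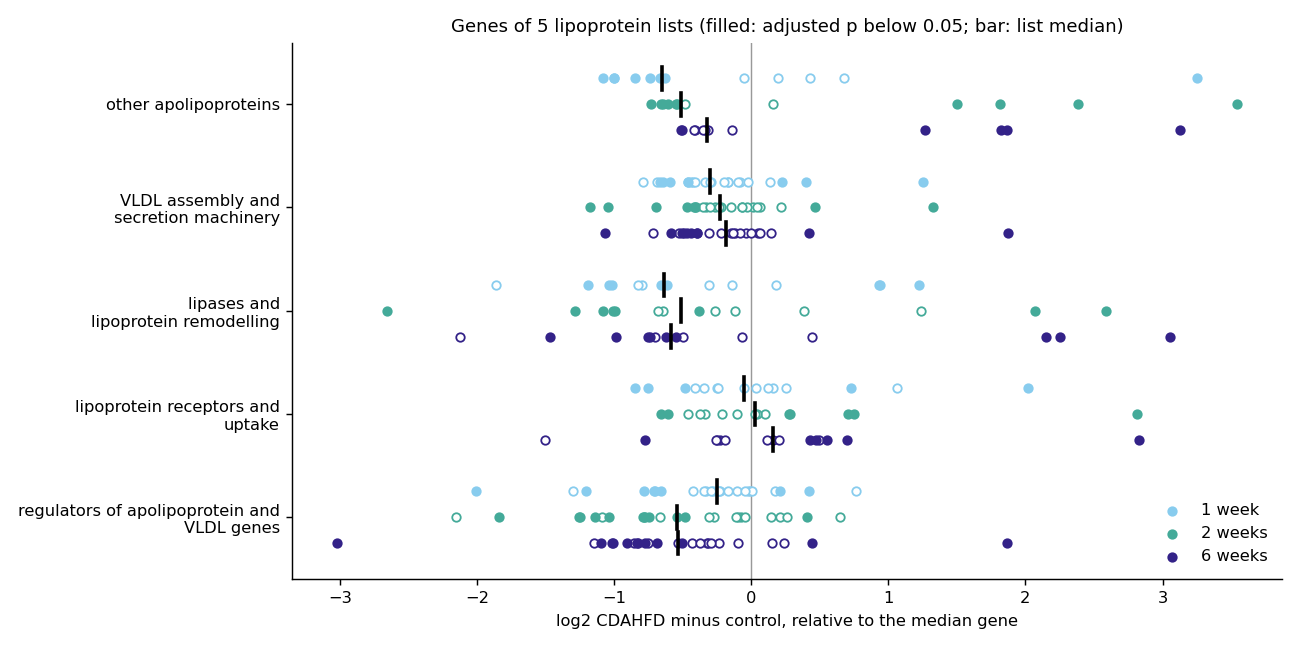
Diet differences (x axis, log2 CDAHFD minus control relative to the median gene) of the measured genes of 5 lists (y axis), with 1, 2 and 6 weeks in light to dark colours, filled points for an adjusted p below 0.05 and a black bar for the list's median. Vmp1, read by a probe in the dim corner, is not drawn but counts in its list's median; the points at the right are Saa3, Apobec1, Lpl and Cd36.

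Of the 14 genes of lipases and lipoprotein remodelling, 2, 2 and 3 rose and 5, 6 and 6 fell, with medians of -0.64, -0.51 and -0.58, beside 25.8%, 23% and 24.5% higher and 15.1%, 14.7% and 16% lower over all genes. The lower counts were 3, 4 and 4 with median centring and 9, 8 and 8 with the percentile over all probes. Over all 13901 genes they were 931, 1051 and 1304 with median centring and 4069, 3777 and 4236 with that percentile. Lpl, the lipase that Apoc2 and Apoa5 activate and Apoc3 restrains, rose by 0.94, 2.59 and 3.05 (SE 0.20), and its difference changed between weeks (limma F test adjusted p = 0.017). Abcg1, a cholesterol exporter of macrophages, rose by 1.22, 2.07 and 2.15 (SE 0.21). Macrophage markers rose in the same arrays, and their part in Lpl and Abcg1 was not tested. The hepatic lipase gene Lipc fell by 1.19, 1.08 and 1.47 (SE 0.19), and Lmf1, which matures lipases in the endoplasmic reticulum, by 1.01, 1.00 and 0.98 (SE 0.12). Lcat was not called (-0.79, -0.64 and -0.50), and Abca1 fell at 2 and 6 weeks, by 0.38 and 0.62, the former call being lost in 8 of 12 analyses that left out 1 array.

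Of 17 genes of lipoprotein receptors and uptake, 15 were measured, and 2, 4 and 5 rose and 3, 2 and 1 fell, with medians of -0.05, 0.03 and 0.16. Over all genes 25.8%, 23% and 24.5% were higher and 15.1%, 14.7% and 16% lower. With the percentile over all probes 1, 2 and 2 were higher and 5, 3 and 5 lower. By that scaling 2296, 2441 and 2606 of all 13901 genes were higher and 4069, 3777 and 4236 lower. Cd36, a scavenger receptor that also takes up fatty acids, rose by 2.02, 2.81 and 2.83 (SE 0.24). Sdc1, the heparan sulphate proteoglycan that takes up remnants, fell by 0.85 and 0.60 at 1 and 2 weeks. Scarb1, the HDL receptor, rose by 0.47 at 6 weeks, and Lrp1 was not called at any time. Stab1, a scavenger receptor, rose at 2 and 6 weeks, by 0.28 and 0.55, the former lost under each of 4 other scalings. Sulf2, which trims heparan sulphate, fell by 0.76 at 1 week and rose by 0.71 and 0.70 at 2 and 6 weeks, a change between weeks that was itself called (limma F test adjusted p = 0.038).

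Of the 25 genes that regulate apolipoprotein and VLDL genes, all were measured, and 2, 1 and 2 rose and 6, 10 and 9 fell, with medians of -0.25, -0.54 and -0.54, where 15.1%, 14.7% and 16% of all genes were lower. The lower counts were 2, 5 and 7 with median centring and 12, 13 and 14 with the percentile over all probes. Over all 13901 genes they were 931, 1051 and 1304 with median centring and 4069, 3777 and 4236 with that percentile. Hnf4a, a liver nuclear receptor known to bind promoters of several of the 10 genes, fell by 0.78 and 0.54 (SE 0.11) at 1 and 2 weeks, and its differences were -0.15 and -0.09 and not called after quantile normalization. Cebpa fell by 0.66, 0.77 and 0.90 (SE 0.14), Thrb, a thyroid hormone receptor, by 0.79 and 1.09 at 2 and 6 weeks, and Nr2f2 by 1.01 at 6 weeks (SE 0.13). Ppargc1b fell by 1.14 at 2 weeks, when it was well above background on 2 control arrays and 1 CDAHFD array. Creb3l3, whose protein activates Apoa4 and Apoc2 transcription in mouse liver, was not called (-0.43, -0.28 and -0.31; limma adjusted p = 0.18, 0.34 and 0.22). Mlxipl, the carbohydrate response factor, rose by 0.42 at 1 week and fell by 1.04 and 0.83 at 2 and 6 weeks, and this change was called (limma F test adjusted p = 0.023).

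Hepatocyte markers, which check the tissue, were among the brightest genes and were lower with CDAHFD, as most of the bright apolipoprotein genes were. Of 7 measured of 8, 7, 5 and 4 fell and 0 rose, with medians of -1.01, -0.79 and -0.47. Their summed level was 306 to 374 on the controls and 156 to 193 on the CDAHFD arrays at 1 week, and 198 to 213 against 156 to 168 at 6 weeks. Alb was lower by 1.30 at 1 week, and its difference was -0.22 and -0.03 at 2 and 6 weeks. Its means were 6.45, 5.31 and 5.14 on the controls and 5.28, 5.15 and 5.15 with CDAHFD. The controls of 1 week were thus the high group, and those of 2 and 6 weeks lay near the CDAHFD level. Of the other markers, those of stellate cells and fibroblasts rose in 6 of 8 genes at each time, Col1a1 by 2.44, 3.52 and 4.01, and those of neutrophils in 2, 3 and 3 of 4. Kupffer cell markers rose in 3, 2 and 2 of 5, endothelial markers in 1 of 6 at each time, with 3 lower at 6 weeks, and erythroid markers fell in 4, 4 and 3 of 4. One Kupffer marker called at 1 week was Timd4, read in the dim corner and named after its values were seen. With the dim spots left out, its 1-week difference was 1.11, from 1 control array. At 6 weeks it then fell by 2.23 (limma adjusted p = 0.0029), a fall not called with the dim spots in. Cholangiocyte markers rose in 0, 0 and 1 of 4 and fell in 1, 0 and 0, and T and B cell markers rose in 3, 0 and 1 of 4 and fell in 1, 0 and 0. Adipocyte markers rose in 1 of 2 at each time, with the other lower at 2 and 6 weeks, and pancreatic markers fell in 1 of 3 at each time and rose in 0. Over all genes 25.8%, 23% and 24.5% were higher and 15.1%, 14.7% and 16% lower at the 3 times. These shares stand beside the marker counts here and those of the macrophage markers above. The part of any marked cell type in the differences of the 10 genes was not tested.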

How the data were processed

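Liver RNA was labelled with Cy3 and hybridised to 12 one-colour Agilent arrays, and groups were taken from the labels. The deposited values are linear spot intensities from Agilent Feature Extraction, with background subtracted and no scaling of arrays to each other, per the file headers. These name version 11.5.1.1, and the submitters' processing notes 10.7. Flags of background, outliers and saturation were deposited beside them.

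Control spots and outlier spots were left out, spots of a probe averaged, and accessions matched to the RefSeq table of GRCm38.p6, which named 28664 of 55681 probes. Values are log2 of processed intensity minus each array's 75th percentile over the 20172 probes detected above background on every array. Genes entered with at least 1 probe detected on both arrays of any group, and their brightest probe was used. No replicates were identical in values (0 probes). Depth does not apply, and the number of arrays limits the precision.

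Tests used limma 3.58.1 (lmFit, eBayes with trend and robust, R 4.3.3) on 6 group means, 2-sided, Benjamini-Hochberg over all genes; the script was tested on simulated data. Ratios within arrays used exact permutations (Python 3). The 10 genes, the lists and the tests were chosen with earlier results of these data known. Named genes were the 10, the first 3 measured of each list and up to 4 more with the smallest adjusted p over the diet contrasts, the 2 genes most correlated with each member, and the first 2 of each marker list, from which examples are given. A few of these genes are left out here. Replicate numbers are shared between groups and coincide with the slide row. Alternatives were other scalings, filters, probe means, eBayes without trend, array weights, the replicate block, fewer arrays, other controls and a 2-fold threshold. Normexp used median signals, since the files used here hold no mean signal.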

Additional observations from a re-analysis of the deposited data

Results flagged for a closer look

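Groups of 2 arrays are too small for a test of outlying samples. Among the genes named, the diet difference changed between weeks in 3, none of them one of the 10 genes, by the limma F test of the diet-by-week terms. Lpl rose at each time and by more at 2 and 6 weeks than at 1 week (adjusted p = 0.0172). Mlxipl was higher with CDAHFD at 1 week and lower at 2 and 6 weeks (adjusted p = 0.0235). Sulf2 was lower at 1 week and higher at 2 and 6 weeks (adjusted p = 0.0382).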

How the results depend on the processing

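Genes called at 1 week numbered 7, and 4 against the controls of 2 and 6 weeks and 4 with a 2-fold threshold. Over all 13901 genes, 5682 were called at 1 week and 4894 against those controls, and the 2-fold threshold was not counted over all genes. At 2 weeks there were 8, with 4 after quantile normalization, 1 with a 2-fold threshold, and 2 to 9 when 1 array was left out. At 6 weeks there were 5, with 3 with no filter, 3 with eBayes without trend, 3 with only the arrays of the week, 1 with a 2-fold threshold, and 3 to 5 when 1 array was left out; at 1 week that range was 6 to 8. Over all genes, 5244 were called at 2 weeks in the main analysis and 5133 after quantile normalization. At 6 weeks the numbers were 5636, 5430 with eBayes without trend, 4513 with only the arrays of the week and 5361 of 21613 with no filter. With an array of a time left out, fewer of all genes were called at that time. The diet difference changed between weeks in 0 of the 10 genes. Leaving out 1 array gave calls only without control replicate 2 at 1 week, for Apoc3 and for Tm6sf2, whose lone control there was its dim spot. Within the controls 3 genes were called across weeks, 1 with eBayes without trend, 1 with weeks 1 and 2 alone, and 0 to 4 without 1 array. Within CDAHFD it was 0 in each analysis. With the replicate number as a block, 7, 8 and 5 genes were called at the 3 times and 3 within the controls, where Apoe took the place of Apoa5; the numbers do not pair the samples (correlations of deviations -0.15 to 0.22). Among differences called in either analysis, signs turned for Apoa2 and Apoe at 2 weeks with quantile normalization (0.046 and 0.040), for Apoc2 at 1 week with quantile normalization (0.63) and against the controls of 2 and 6 weeks (0.32). Tm6sf2 at 1 week turned without 1 array (-0.91 to 3.25, the lower value without control replicate 1, the higher against its dim spot alone). It also turned without the dim spots (-0.92) and against the later controls (-0.55, not called). Differences called in neither analysis also turned: with quantile normalization Apoa1 at 1 and 2 weeks (0.14 and 0.18) and Apoa2, Apoc3 and Apoe at 6 weeks (0.10, 0.16 and 0.03), and Apoc2 at 1 week with normexp (0.35). With 1 array left out, 30 of 360 differences of the 10 genes lost their call, 8 gained one and 1 turned. Leaving out an array of the group compared leaves a lone array, which is assumed to vary like the others. The authors' own normalized table was not used here, so that alternative was not run. The cause of these dependences was not tested.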
